A study of Homo sapiens with 4 samples.

Results

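The mitochondrial ribosomal proteins (MRPs) are the nuclear-encoded proteins of the mitochondrial ribosome. Members were all genes of the deposited count table whose symbol was MRPL or MRPS followed by a number, with an optional letter A to C for MRPS. These were 78 of the 15357 genes listed. All 78 passed the filter on low counts, as did 11955 genes in all. The 4 samples were bulk RNA-seq libraries of RKO, an established human colon cancer cell line. The vector group (n = 2) carried a control lentivirus, and the shCHD7_2 group (n = 2) a lentivirus with a short hairpin RNA against CHD7, an ATP-dependent chromatin remodeller. Both groups were stably infected cells, and a single hairpin was sequenced, so an effect of CHD7 loss and an effect of that hairpin on other transcripts cannot be told apart. The labels do not say whether replicates were separate infections, so p-values measure only the spread between these libraries.

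The mitochondrial ribosome translates the few membrane proteins that mitochondrial DNA encodes, all of them parts of the respiratory chain and ATP synthase. Its 2 rRNAs come from mitochondrial DNA, whereas each of its proteins is translated in the cytosol and imported. Part of these proteins have a bacterial homologue, and the others were added in the mitochondrial lineage. Their nuclear promoters are known for binding sites of the ETS factor GABP (nuclear respiratory factor 2), of NRF1 and of YY1.

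The members' promoters shared sequence features that the choice of members did not use. RefSeq windows (GRCh38.p14) of 250 bases before to 50 after a start site were at hand for 69 of the 78 genes, 85 windows in all. Both strands were searched for 3 short cores, CCGGAAG for ETS factors, AAGATGGC for YY1 and GCGCATGC for NRF1. The ETS core was present in 38.8% of member windows and 15.2% of the 16915 windows of all listed genes. For the YY1 core the shares were 27.1% and 4.24%, and for the NRF1 core 7.06% and 4.33%. Either of the first 2 cores was found in 54.1% of member windows and 18.5% of all windows. These shares describe letters in a window and not bound sites. Positions were counted window by window, so a site in overlapping windows of the same gene counted once for each, as in MRPS22 and MRPL47. Within 120 bases before to 30 after the start, the 20 forward ETS cores all lay upstream (median position -31). Of the 21 on the reverse strand 6 began at or after the start (median position -19). Of the 14 forward YY1 cores 12 began at or after the start (median position 11), and the 3 on the reverse strand all lay upstream (median position -84). In 6 genes this stretch held both cores. A set of 3 is printed here, 5′ to 3′ on the gene's strand and ending 30 bases into the transcript, with every core in capitals.
MRPL20, chr1:1407264-1407413, minus strand: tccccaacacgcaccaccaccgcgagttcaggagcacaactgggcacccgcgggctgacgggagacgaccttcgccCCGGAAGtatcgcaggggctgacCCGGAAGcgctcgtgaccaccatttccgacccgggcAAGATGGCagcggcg
MRPL51, chr12:6493233-6493382, minus strand: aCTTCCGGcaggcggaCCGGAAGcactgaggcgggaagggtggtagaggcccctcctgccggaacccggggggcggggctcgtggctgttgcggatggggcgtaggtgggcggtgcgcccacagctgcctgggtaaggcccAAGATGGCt
MRPS18A, chr6:43687762-43687911, minus strand: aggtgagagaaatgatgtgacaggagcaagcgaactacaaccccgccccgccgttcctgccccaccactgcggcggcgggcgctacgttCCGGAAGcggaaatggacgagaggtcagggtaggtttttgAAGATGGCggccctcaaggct

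The same stretch is shown for MRPL49 and MRPL55, the only members that passed the test in the comparison of the groups. RefSeq gives MRPL49 a pair of start sites. No stretch held any of the 3 cores whole, so no letter is in capitals, and a YY1 core runs past the end of the second MRPL49 stretch. Its first stretch also contains the start of FAU, a cytosolic ribosomal protein gene on the opposite strand whose start lies 49 bases away.
MRPL49, chr11:65122063-65122212, plus strand: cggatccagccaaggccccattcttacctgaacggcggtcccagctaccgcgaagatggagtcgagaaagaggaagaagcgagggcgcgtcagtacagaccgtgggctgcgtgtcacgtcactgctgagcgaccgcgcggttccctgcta
MRPL49, chr11:65122201-65122350, plus strand: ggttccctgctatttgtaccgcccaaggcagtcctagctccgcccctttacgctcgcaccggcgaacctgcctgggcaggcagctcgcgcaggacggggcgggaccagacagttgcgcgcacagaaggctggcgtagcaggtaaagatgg
MRPL55, chr1:228109270-228109419, minus strand: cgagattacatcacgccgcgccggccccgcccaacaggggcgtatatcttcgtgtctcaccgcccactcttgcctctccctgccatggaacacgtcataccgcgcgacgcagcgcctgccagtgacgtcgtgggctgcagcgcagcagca

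Depth was even, with 15734679 to 16068650 expected counts per library, of which 77064 to 83465 fell on MRP genes. A single member's count in a library ranged from 134 to 4278. CHD7, the gene targeted, was lower in both knockdown libraries. Its normalised counts (CPM, scaled to library size) were 85.4 and 91.0 in vector and 55.5 and 50.1 in shCHD7_2. The log2 fold change was -0.74 ± 0.09 (SE), with an adjusted p of 4.2e-06 (edgeR quasi-likelihood test, Benjamini-Hochberg adjustment over all genes tested, as for every adjusted p here). Of the colon epithelial markers, EPCAM, KRT8, KRT18 and CDX2 were detected, whereas CDH1, CDH17, KRT20 and LGALS4 were at or near 0 FPKM. Of the other cell types' markers, 3 of 9 fibroblast genes were in the table, with a summed level of 1.32 to 1.53 FPKM in vector and 2.28 to 2.74 in shCHD7_2. Nearly all of it was ACTA2, a smooth-muscle actin (1.48 and 1.31 FPKM, then 2.18 and 2.65), with COL1A1 and LUM at 0.09 FPKM or less. Of 3 blood and immune markers in the table, CD14 was at 0.05 FPKM or less, and HBA1, a haemoglobin chain, at 0 and 1.27 FPKM in vector and 0.54 and 0.45 in shCHD7_2. CD68 on that list, a lysosomal protein, was at 529 and 495 FPKM in vector and 602 and 611 in shCHD7_2, and the part of ACTA2 and CD68 in the results was not tested.

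MRP mRNAs covered a 16.6-fold range of mean level, in FPKM (fragments scaled to transcript length and library size, so that genes can be compared). The 5 highest were MRPS2 (180 FPKM, mean of the 4 libraries), MRPL51 (166), MRPL37 (153), MRPL41 (145) and MRPL13 (138). Neighbours at the top overlapped, as MRPS2 ranged from 162 to 200 FPKM and MRPL51 from 155 to 180. The 5 lowest were MRPL22 (13.9 FPKM), MRPL19 (13.9), MRPS25 (13.6), MRPS11 (11.9) and MRPS36 (10.8). MRPS36 ranged from 10.1 to 12.1 FPKM and MRPS11 from 11.1 to 12.9, so these also overlapped. MRPS36 is now assigned to the alpha-ketoglutarate dehydrogenase complex and not to the ribosome. The median member stood at 44.9 FPKM and the median gene tested at 12.8. Cytosolic ribosomal protein genes were far above both, with a median of 1878 FPKM. At the top, MRPL41 spread widely within groups, with 146 and 120 FPKM in vector and 141 and 174 in shCHD7_2. MRPL37 hardly did, with 156 and 151 FPKM in vector and 151 and 154 in shCHD7_2.

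**Figure D1:**
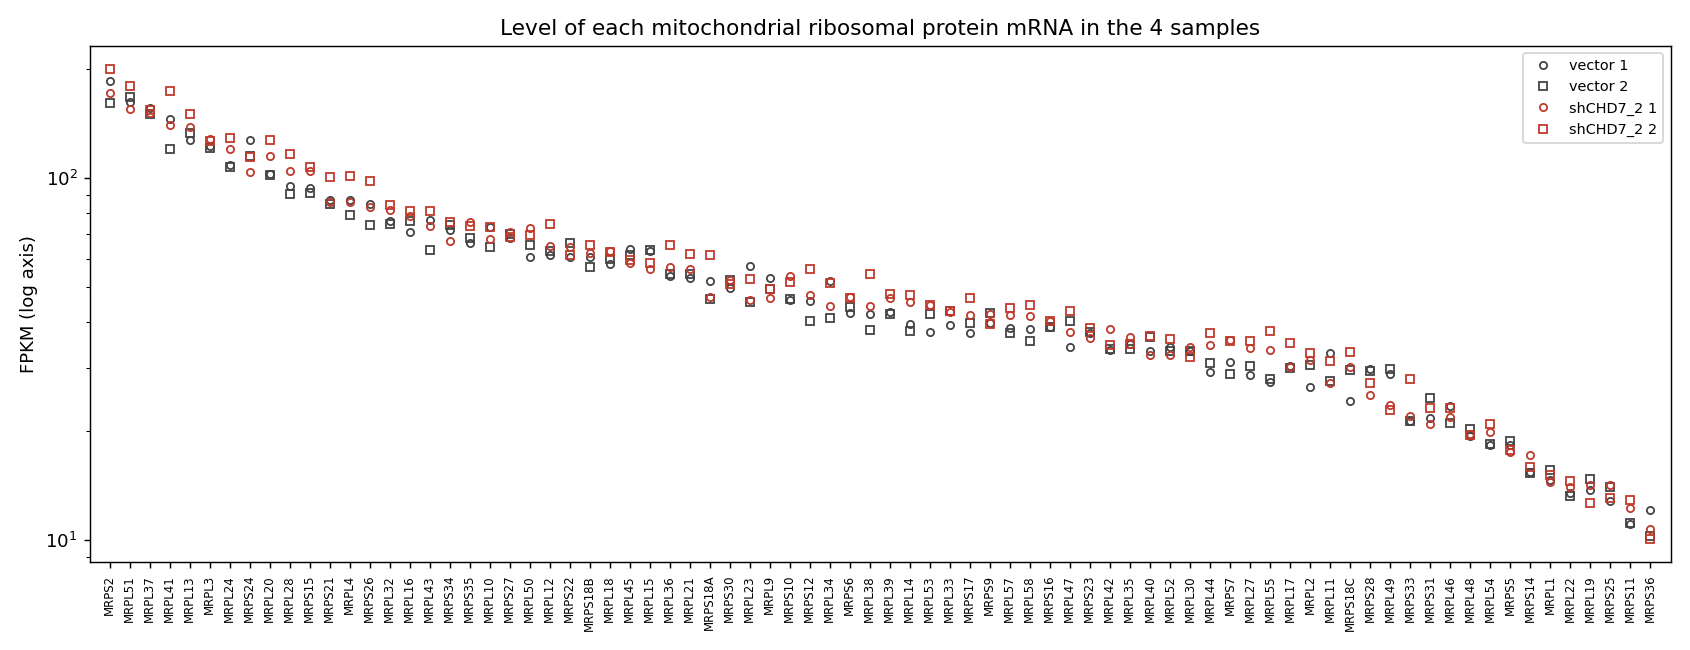
FPKM (log axis) of each of the 78 MRP genes in the 4 libraries, ordered by mean; black marks are vector and red marks shCHD7_2, with circles for replicate 1 and squares for replicate 2. For most genes the 4 marks lie close together beside the 16.6-fold range between genes, and shCHD7_2 replicate 2 is often the highest.

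The question for these genes was whether CHD7 knockdown changed their mRNA. Only 2 of 78 passed an adjusted p of 0.05, 1 higher and 1 lower, or 2.56% beside 11.5% of all genes tested (4.94% higher and 6.54% lower). Which members passed depended on single libraries. As each library was left out in turn, MRPL49's log2 fold change ranged from -0.40 to -0.35 and MRPL55's from 0.24 to 0.41. With all libraries, no member that passed also reached the 1.5-fold change that the study required, beside 2.88% of all genes. At an unadjusted p under 0.05 there were 10 members, 8 higher and 2 lower, or 12.8% beside 25.4% of all genes (1448 higher and 1587 lower). With 2 libraries against 2, an exact permutation test of a single gene cannot go below p = 0.333.

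MRPL49 and MRPL55, both large-subunit proteins, moved in opposite directions. MRPL49, added to the ribosome in the mitochondrial lineage, was at 56.6 and 58.5 CPM in vector and at 44.9 and 44.1 in shCHD7_2. Both knockdown libraries were thus below both controls. Its log2 fold change was -0.37 ± 0.09 (SE; 95% interval -0.55 to -0.19), with an adjusted p of 0.0063. On the FPKM scale the libraries read 28.8 and 29.7 in vector and 23.6 and 22.9 in shCHD7_2. The gene lies on chromosome 11 at 65122183 to 65127371 (GRCh38.p14). MRPL55, which has a bacterial homologue, was at 21.5 and 21.9 CPM in vector and at 25.6 and 28.8 in shCHD7_2. Here both knockdown libraries were above both controls. Its log2 fold change was 0.33 ± 0.11 (SE; 95% interval 0.11 to 0.55), with an adjusted p of 0.044. MRPL55 lies on chromosome 1 at 228106685 to 228109299 (GRCh38.p14). GENCODE lists 2 pseudogenes of MRPL49, whose counts were whole in every library, and none of MRPL55, whose counts were within 0.01 of whole. Neither call held everywhere: DESeq2 gave MRPL55 an adjusted p of 0.21, and with the replicate number as a block edgeR gave 0.15 for MRPL55 and 0.053 for MRPL49. Without vector replicate 2 the adjusted p of MRPL49 was 0.098, and leaving out vector replicate 1, vector replicate 2 or shCHD7_2 replicate 2 took that of MRPL55 to 0.20, 0.20 and 0.26.

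The next 5 genes by size of change did not pass. MRPL38 was at 60.7 and 54.9 CPM in vector and 61.7 and 76.5 in shCHD7_2, a log2 fold change of 0.26 ± 0.10 (SE) with an adjusted p of 0.099. MRPL14, a homologue of a core bacterial large-subunit protein, read 33.4 and 31.9 CPM and then 37.1 and 39.3 (0.23 ± 0.09, adjusted p 0.13). MRPL44, which carries an RNase III-like fold, read 46.9 and 49.8 CPM and then 54.0 and 58.7 (0.22 ± 0.09, adjusted p 0.12). In these 3 genes both knockdown libraries were above both controls. MRPS12, the homologue of a bacterial decoding-centre protein, read 40.8 and 35.9 CPM in vector and 40.7 and 48.8 in shCHD7_2 (0.22 ± 0.10, adjusted p 0.18). Its groups overlapped. MRPS28 was the next gene below 0, at 16.5 and 16.3 CPM in vector and 13.4 and 14.8 in shCHD7_2 (-0.22 ± 0.13, adjusted p 0.29), with groups that did not overlap. Without shCHD7_2 replicate 2 the change was 0.095 for MRPL38 and 0.084 for MRPS12, and without shCHD7_2 replicate 1 it was 0.40 and 0.34. MRPS18A and MRPS30 are small-subunit proteins by name and lie in the large subunit by structure. MRPS18A was at 54.2 and 48.6 CPM in vector and at 47.4 and 62.7 in shCHD7_2, and MRPS30 at 76.1 and 80.3 and then 77.5 and 76.4. Their log2 fold changes were 0.10 ± 0.11 and -0.02 ± 0.08 (SE), with adjusted p of 0.62 and 0.89. Both overlapped between groups, and both signs turned under some of the settings given in the closing section.

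**Figure D2:**
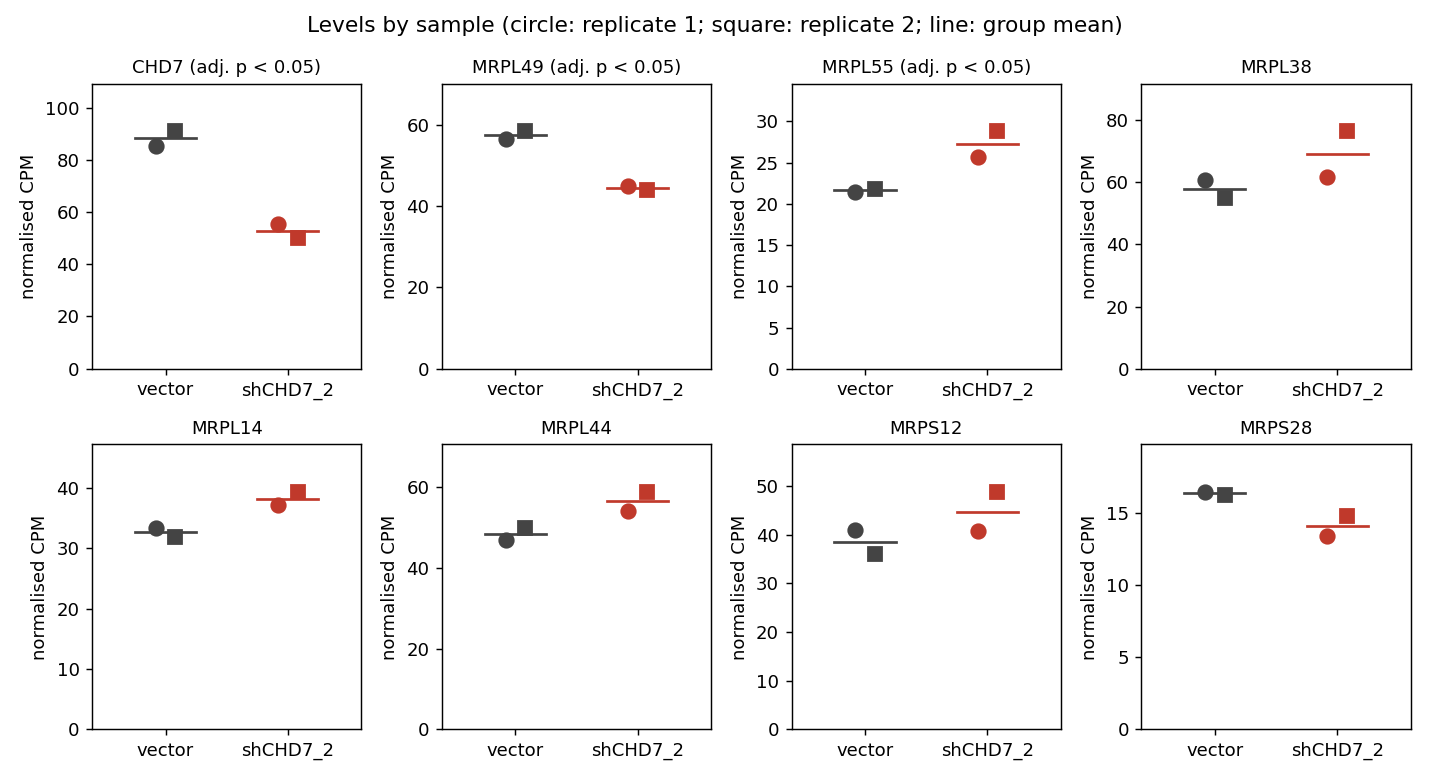
Normalised CPM of CHD7, of MRPL49 and MRPL55 and of the 5 members with the next largest changes, by library (circles replicate 1, squares replicate 2, lines group means, each axis from 0). The groups are apart for CHD7 and for every MRP gene drawn except MRPS12, and the 2 shCHD7_2 libraries differ most for MRPL38 and MRPS12.

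The other members moved little. The log2 fold change lay within 0.1 of 0 for 38 members, between 0.1 and 0.2 in size for 28 and above 0.2 for 12. For all 78 the 95% interval, taken gene by gene, lay inside a 1.5-fold change in either direction (0.58 on the log2 scale), beside 80.5% of all genes tested. This was not particular to the members. It also held for all 80 cytosolic ribosomal protein genes and for 93.8% of the oxidative phosphorylation subunits tested. The lowest bound of any member was -0.55 and the highest 0.55. Smaller changes could go unseen. In counts simulated for this comparison, the edgeR test recovered 76% of genes changed 1.5-fold, and fewer of those changed less.

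**Figure D3:**
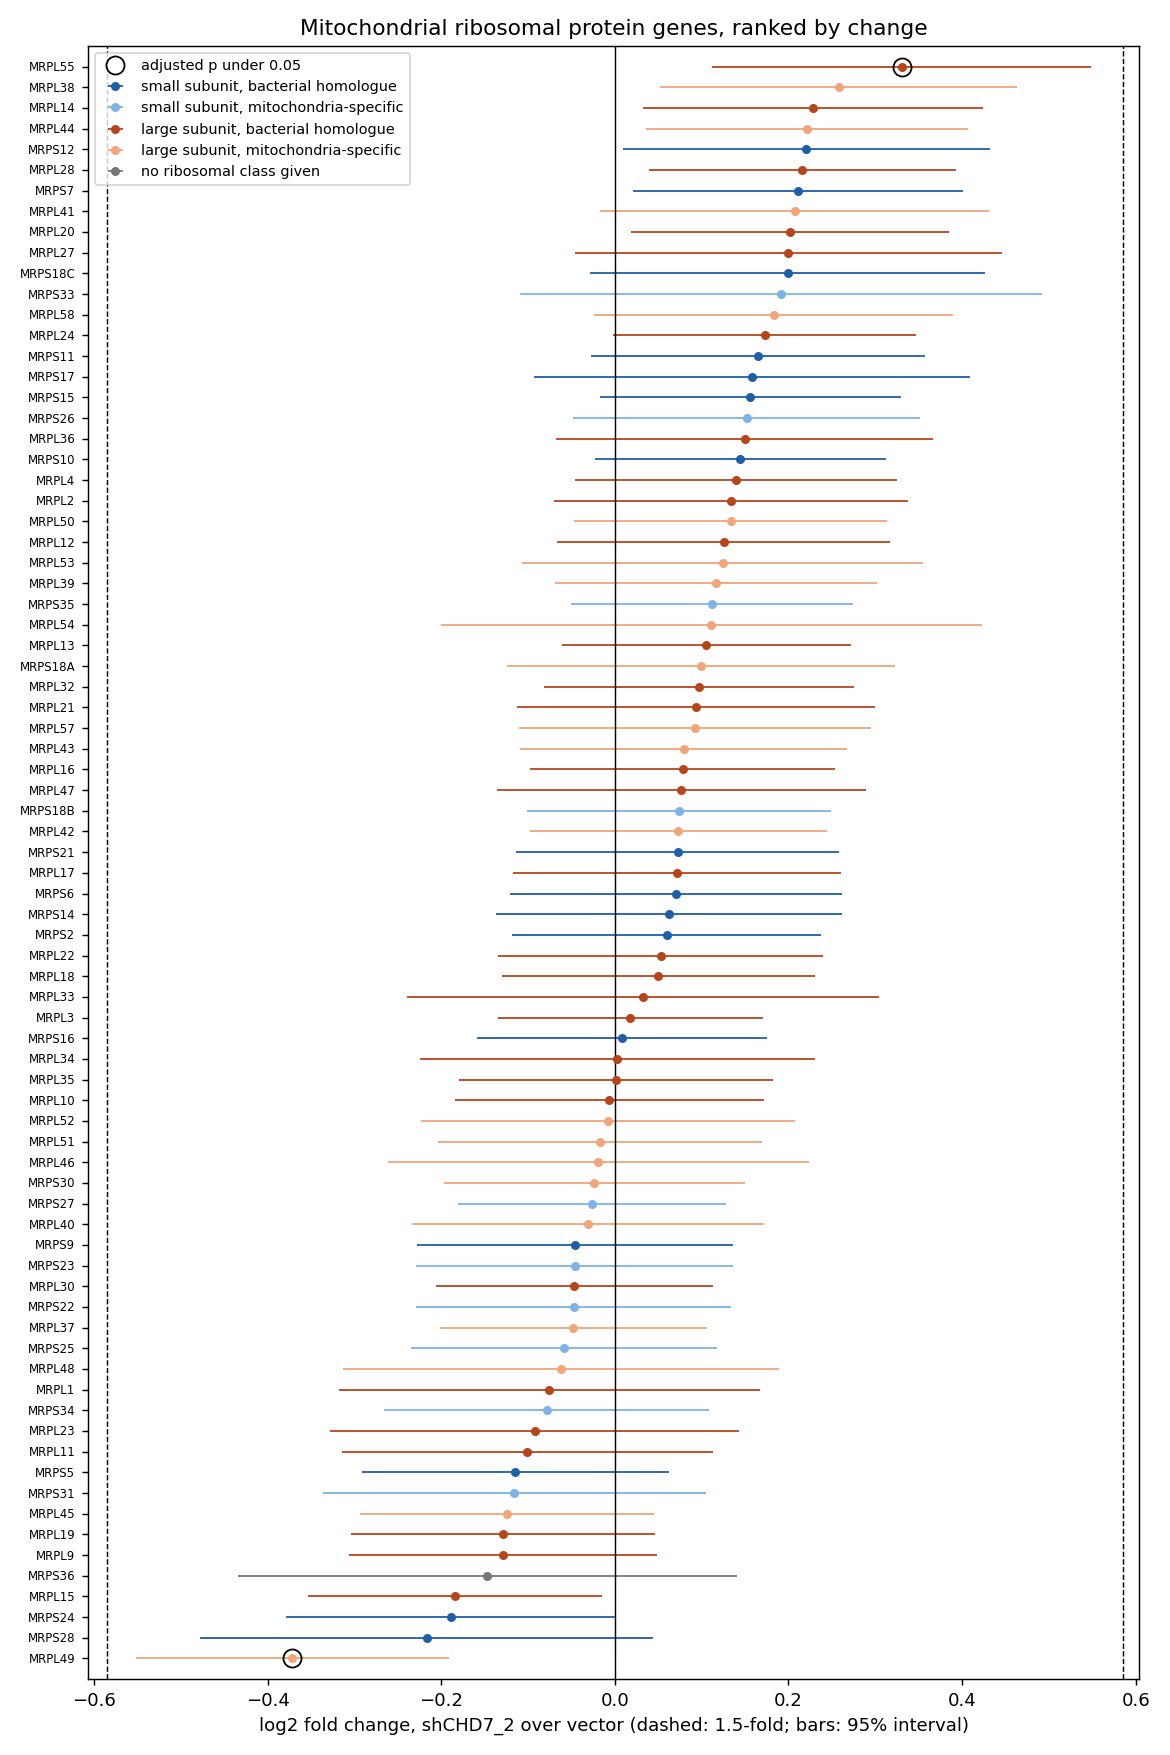
Fitted log2 fold change (shCHD7_2 over vector) of each of the 78 MRP genes, ranked, with the 95% interval as a bar and the class as a colour; circled genes had an adjusted p under 0.05 and dashed lines mark a 1.5-fold change. Every bar ends inside the dashed lines, and only MRPL55 at the top and MRPL49 at the bottom are circled.

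The middle of the members sat slightly above 0. Of the 78, 50 had a log2 fold change above 0 and 28 below, with a median of 0.07 (quartiles -0.05 and 0.14), beside a median of 0.00 (quartiles -0.13 and 0.13) over all genes tested. Their groups did not overlap in 37 genes, 28 higher and 9 lower, or 47.4% beside 53.7% of all genes (3153 higher and 3265 lower). The size of this median depended on 1 library. Summed over the members, CPM was 4964 and 4893 in vector and 4899 and 5231 in shCHD7_2, so that on this scale only shCHD7_2 replicate 2 stood above the controls. Summed FPKM was 4266 and 4163 in vector and 4352 and 4686 in shCHD7_2, with both knockdown libraries above both controls and replicate 2 the higher. FPKM ran higher in shCHD7_2 for genes at large. In a fit on log2(FPKM + 1) with a mean FPKM of at least 1, the all-gene median was 0.04, beside 0.11 for members. In the fit on counts, the members' median was 0.0061 without shCHD7_2 replicate 2 and 0.11 without shCHD7_2 replicate 1.

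Each of the 4 classes of members held at most 1 gene that passed. Of 30 large-subunit proteins with a bacterial homologue, 22 were above 0, with a median log2 fold change of 0.07, and MRPL55 was the one called. Of 21 large-subunit proteins specific to mitochondria, 12 were above 0 (median 0.08), and MRPL49 was the one called. Of 16 small-subunit proteins with a homologue, 12 were above 0 (median 0.07). The 10 small-subunit proteins specific to mitochondria had 4 above 0 and a median of -0.04. None of these last 26 passed the test, and the difference between classes was not tested. MRPS36, in none of the classes, was at -0.15 ± 0.14 (SE, adjusted p 0.55).

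Within groups, the members' differences moved with the GC content of their mRNA. The median member was 48.9% GC, close to the 48.7% of all genes tested. Across the 78 genes, the log2 ratio of shCHD7_2 replicate 2 to replicate 1 had a Pearson correlation of 0.60 and a Spearman correlation of 0.57 with GC content. For vector replicate 1 over replicate 2 the values were 0.48 and 0.47. Over the 11719 genes tested that had a GC value they were 0.48 and 0.56 for the knockdown pair and 0.43 and 0.53 for the vector pair. Genes are not independent replicates, all points of a pair share the same 2 libraries, and these are descriptions. In the 26 most GC-rich members, shCHD7_2 replicate 2 was above replicate 1 in 25 genes, by a median log2 ratio of 0.19, and in the 26 most GC-poor in 16 genes, by 0.05. Summed CPM of the 26 GC-rich members was 1745 and 1636 in vector and 1670 and 1903 in shCHD7_2. That of the 26 GC-poor members was 1506 and 1552 in vector and 1572 and 1577 in shCHD7_2. The fitted change itself had a Pearson correlation of 0.23 and a Spearman correlation of 0.24 with GC content. With an offset for GC content in the edgeR fit, an alternative added after the data were seen, 10 members were higher and 2 lower, or 15.4% beside 22.4% of all genes. MRPL49 and MRPL55 were among these 12, and no member reached 1.5-fold.

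**Figure D4:**
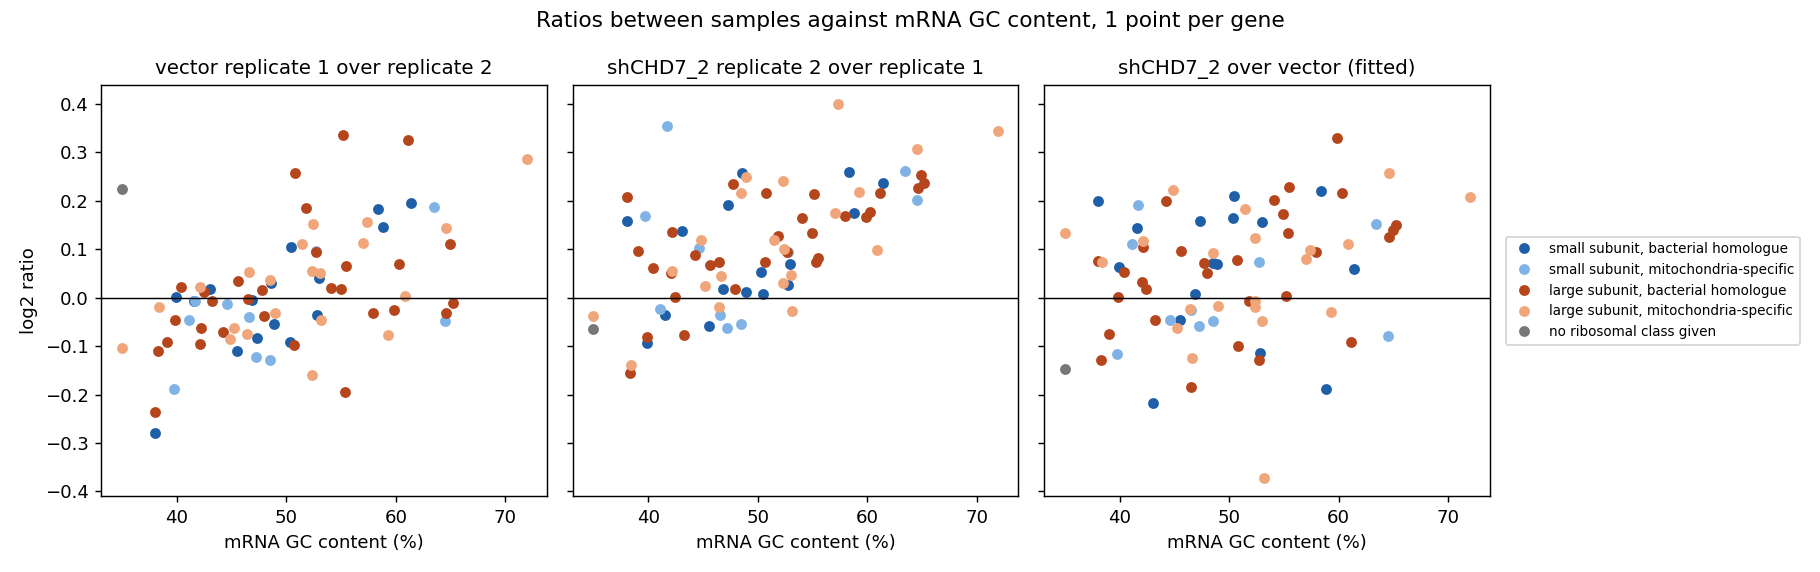
Log2 ratio between the 2 vector libraries (left), between the 2 shCHD7_2 libraries (middle) and between the groups as fitted (right) against mRNA GC content in percent, with 1 point per MRP gene coloured by class. Points climb with GC content in the left and middle panels (Pearson 0.48 and 0.60) and less in the right panel (0.23).

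Genes that build and serve the mitochondrial ribosome were read from lists. Of 5 ribosomal proteins whose symbols the name rule does not catch, AURKAIP1, a small-subunit protein, was higher. It read 65.3 and 55.8 CPM in vector and 66.6 and 84.5 in shCHD7_2 (log2 fold change 0.32 ± 0.10, adjusted p 0.049). The lower knockdown library was barely above the higher control, and without shCHD7_2 replicate 2 the change was 0.14 (adjusted p 0.48). Among 27 assembly and rRNA modification factors tested, 3 rose and 1 fell. GTPBP10, a GTPase of large-subunit assembly, went from 76.6 and 78.4 to 105 and 92.4 CPM (0.35 ± 0.09, adjusted p 0.0097). TRUB2, a pseudouridine synthase, went from 85.5 and 81.5 to 104 and 106 CPM (0.33 ± 0.08, adjusted p 0.0097). MRM3, an rRNA methyltransferase, was also higher (0.35 ± 0.10, adjusted p 0.020). METTL15, which methylates the small-subunit rRNA, fell from 39.3 and 41.9 to 34.1 and 31.5 CPM (-0.31 ± 0.09, adjusted p 0.037). In each of these 4 genes both knockdown libraries lay on one side of both controls.

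Among 16 translation factors and mRNA stability factors tested, 2 rose and 1 fell. TACO1, an activator of COX1 translation, read 21.2 and 22.0 CPM in vector and 28.8 and 26.6 in shCHD7_2 (0.36 ± 0.10, adjusted p 0.026). GUF1, a GTPase that acts on the translating ribosome, changed by 0.24 ± 0.08 (adjusted p 0.048). LRPPRC, which stabilises mitochondrial mRNAs, fell from 480 and 513 to 431 and 405 CPM (-0.25 ± 0.07, adjusted p 0.028). None of 8 mitochondrial DNA transcription and replication genes and none of 8 regulators of mitochondrial biogenesis passed, the regulators including those whose cores were searched above (median log2 fold changes 0.11 and -0.03). At an unadjusted p under 0.05 these numbered 2 and 0. Called shares were 14.8% for the assembly list and 18.8% for the translation list, beside 11.5% of all genes. With the replicate block in edgeR none of these 8 named genes kept an adjusted p under 0.05 (AURKAIP1 0.13, GTPBP10 0.074, TRUB2 0.093, MRM3 0.098, METTL15 0.17, TACO1 0.10, GUF1 0.27, LRPPRC 0.14). All 8 also lost the call without vector replicate 2 (adjusted p from 0.080 for GTPBP10 to 0.48 for AURKAIP1), and all except AURKAIP1 without vector replicate 1 (0.061 to 0.25). GTPBP10, TACO1 and GUF1 lost it without shCHD7_2 replicate 1 (0.081 to 0.15), and AURKAIP1, MRM3, METTL15 and LRPPRC without shCHD7_2 replicate 2 (0.089 to 0.48). None of 15 genes encoded by mitochondrial DNA was in the count table, and they are not analysed here.

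The partners of the mitochondrial ribosome leaned in opposite directions. Of 80 cytosolic ribosomal protein genes, 70 were below 0 (median log2 fold change -0.13), beside 5962 of the 11955 genes tested. Of these 80 genes, 1 passed as higher and 10 as lower. RPL23 (-0.42 ± 0.07), RPL6 (-0.32 ± 0.07) and RPL34 (-0.31 ± 0.08) fell, with adjusted p from 0.00033 to 0.0099, and RPS27L, a paralogue of a ribosomal protein, rose (0.40 ± 0.09, adjusted p 0.0041). Of 80 tested subunits of oxidative phosphorylation, 57 were above 0 (median 0.06), and 3 passed as higher and 2 as lower. These were COX7C (0.66 ± 0.08), UQCR11 (0.40 ± 0.09) and UQCR10 (0.30 ± 0.09) above 0 and ATP5MD (-0.85 ± 0.10) and UQCRC2 (-0.30 ± 0.08) below. Whichever library was left out, RPL23, COX7C and ATP5MD kept an adjusted p under 0.05. RPL6, RPL34, UQCR11, UQCR10 and UQCRC2 lost it without vector replicate 2 (0.097 to 0.34), RPS27L, UQCR10 and UQCRC2 without vector replicate 1 (0.062 to 0.11), and UQCR11 and UQCR10 without shCHD7_2 replicate 2 (0.063 and 0.16). With the replicate block UQCR10 and UQCRC2 did not pass (0.16 and 0.098). The called shares were 2.56% for MRP genes, 13.8% for cytosolic ribosomal proteins and 6.25% for oxidative phosphorylation, and no test of the differences between lists was run.

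**Figure D5:**
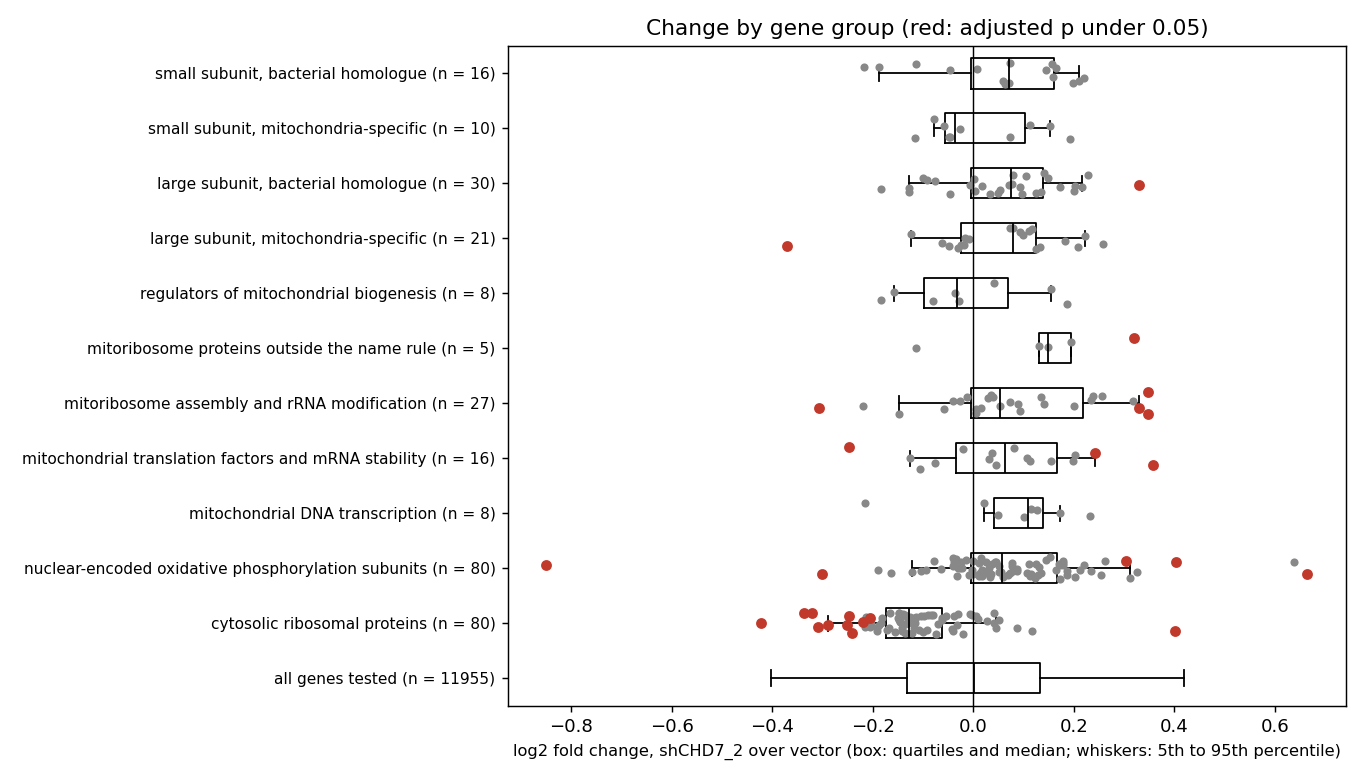
Fitted log2 fold change (shCHD7_2 over vector) by gene group, with boxes for quartiles and median, whiskers from the 5th to the 95th percentile, 1 point per gene except in the bottom row, and red points for an adjusted p under 0.05. The 4 classes of MRP genes lie between -0.37 and 0.33 and hold 2 red points, whereas the cytosolic ribosomal proteins hold 11 and have a median of -0.13.

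In 19 members a gene on the opposite strand started within 1000 bases, making 18 head-to-head pairs, since MRPL46 and MRPS11 face each other. FAU, which faces MRPL49 across 49 bases, was at 240 and 245 CPM in vector and at 218 and 247 in shCHD7_2. Its log2 fold change was -0.06 ± 0.08 (SE, adjusted p 0.67), beside -0.37 for MRPL49, and its groups overlapped. The difference between the pair was not tested. Of all these neighbours only TMEM63B, opposite MRPL14, passed the test, as did 11.5% of all genes tested. It read 41.2 and 38.8 CPM in vector and 50.3 and 48.3 in shCHD7_2 (0.30 ± 0.09, adjusted p 0.031), beside 0.23 ± 0.09 (adjusted p 0.13) for MRPL14. Both genes of that pair were higher in both knockdown libraries. Of the 18 pairs, 11 had changes of the same sign, and whether facing genes move together was not tested.

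The 3′ untranslated regions (UTRs) of the members were short, with a median of 494 bases beside 1361 over the genes tested. They were searched on the transcript strand for 3 words of 7 letters that an earlier look at these same data had picked out, so the count lends no support to them. The leading word was AGCTATT. Its neighbour GCTATTA starts 1 base later, and the last word was GAAGCTA. A word was present in 10 of 78 members (12.8%) and in 22.3% of the genes tested that had a 3′ UTR. MRPL49 held the leading word and its neighbour joined in a single site, which ended 45 bases before the end of its 3′ UTR, and MRPL55 held none. The same joined site was present in MRPL19 and MRPS30. These sites are printed because MRPL49 was the one member that fell, 5′ to 3′ with the joined words in capitals (GRCh38).
MRPL49, chr11:65127309-65127336, plus strand: atacaatttaAGCTATTAaaatttgtac
MRPL19, chr2:75657599-75657626, plus strand: gttagaagatAGCTATTAaaacctgttc
MRPS30, chr5:44815442-44815469, plus strand: tgagttattgAGCTATTAaatgcacatt

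MRPL19, with the same 8 letters as MRPL49, had a log2 fold change of -0.13 ± 0.08 (SE, adjusted p 0.36), and MRPS30 of -0.02 ± 0.08. Of the 10 members that held any of the words, 6 were below 0 and the rest above 0. Their median log2 fold change was -0.04, beside 0.08 over the 68 other members. Over all genes tested that had a 3′ UTR, the median was -0.08 for the 2611 with a word and 0.02 for the 9079 without. As the words were picked from these same data, these medians lend them no support, and their part was not tested.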

How the data were processed

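RNA was selected on oligo-dT beads. Per the submitters' processing notes, Bowtie2, RSEM and DESeq2 were used with build hg38, with no versions given. The authors deposited a table of expected counts per gene (RSEM estimates that need not be whole) and a table of FPKM for the same 4 libraries. FPKM depends on the gene lengths the authors used. RSEM shares reads among similar sequences, and 10 members had counts that were not whole.

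Expected counts were rounded to whole numbers. In R 4.3.3, genes past filterByExpr were fitted with edgeR 4.0.16 (TMM scaling, glmQLFit, glmQLFTest) without a block, with Benjamini-Hochberg adjustment over 11955 genes. A gene passed at an adjusted p under 0.05. CPM are scaled by TMM. The fit was tested on simulated counts, where 95.1% of 95% intervals held the true value. Of the 11877 genes tested there, edgeR called 17 that had not been changed, and DESeq2 called 0. The simulated counts lacked the GC-linked differences between replicates, so these figures may not hold for the real libraries. Alternatives used DESeq2 1.42.0 and limma 3.58.1 on log2(FPKM + 1) or log2(FPKM + 0.1). Named were CHD7, members that passed, the next 5 by size of change, the 5 highest and 5 lowest by FPKM, MRPS18A, MRPS30 and, in each list of other genes, up to 4 per direction that passed. A gene that this rule also names is not reported here. TMEM63B, FAU and MRPL19's site were named after their values were seen. Members and lists were chosen with earlier results of these data known. GC content, lengths and 3′ UTRs come from GENCODE 29, matched by symbol.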

Additional observations from a re-analysis of the deposited data

How the results depend on the processing

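Depth and 2 libraries per group limited what could be seen: a change as small as those of MRPL49 and MRPL55 was often missed in simulation. No member reached 1.5-fold with an adjusted p under 0.05 under any of the 16 alternatives, and in all 16 the share of members called was below that of all genes. All 16 draw on the same 4 libraries, and fits that called few genes could hardly have given another result. Limma on log2(FPKM + 1) without a filter called 12 genes, or 0.08%. MRPL49 stayed below 0 and MRPL55 above 0 in all 16, with an adjusted p under 0.05 in 11 and 8. The number of members higher, 1 as reported, was 3 with library totals without TMM, and 0 with DESeq2, with no filter on low counts, with limma on log2(FPKM + 0.1) and with limma on log2(FPKM + 1) without a filter. The number lower, 1 as reported, was 0 with no filter and with the same 2 limma fits. Leaving out 1 library also changed which members passed. The log2 fold change of MRPL49 then ranged from -0.40 to -0.35 and that of MRPL55 from 0.24 to 0.41. The members' median ranged from 0.0061 without shCHD7_2 replicate 2 to 0.11 without shCHD7_2 replicate 1 as libraries were left out, and from 0.07 to 0.12 under the other settings. The 0.12, with library totals, stood beside an all-gene median of 0.04, which was 0.00 in the main fit. CHD7 passed under every setting except limma on log2(FPKM + 1) without a filter (-0.51, adjusted p 0.083). A fit without 1 library assumes that the lone library of its group varies like the other group.

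With the replicate number as a replicate block, 0 members were higher and 0 lower, and 755 genes were called in place of 1373. The labels do not say that a number marks a shared batch, and same-numbered libraries deviated in opposite directions (correlation -0.25 over genes), so the numbers were not taken to pair the libraries. Crossing the pairing, added after the data were seen, joined libraries that deviated in the same direction. A block on it takes that shared deviation out of the spread, so its calls lend no support. This pairing gave 15 members higher and 4 lower, or 24.4% beside 31.4% of all genes, with 3751 genes called. GC-content offsets, also added, gave 10 higher and 2 lower alone (15.4% beside 22.4% of all genes). With the replicate block they gave 5 higher and 2 lower (8.97% beside 18.7%). The share of higher among all called genes was 43.0% with TMM, 59.1% with library totals and 50.1% with GC offsets. Calls over all genes were 800 with DESeq2, 197 with no filter, and 834, 562 and 12 with the 3 limma fits. Without 1 library they ranged from 610 (vector replicate 2) to 1702 (shCHD7_2 replicate 1). MRPS18A was at -0.12 without shCHD7_2 replicate 2 and at 0.28 without shCHD7_2 replicate 1. MRPS30 was at 0.020 with library totals and at 0.019 in the 3 limma fits, and went from -0.063 without vector replicate 1 to 0.014 without vector replicate 2. None of the other genes named because they passed or for the size of their change turned direction, and genes named only for their level, position or sequence were not followed across settings. The causes of these shifts were not tested.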
